A study of Mus musculus with 4 samples.

Results

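The cells described here were picked from single-cell RNA libraries of the mouse digit by transcripts of smooth muscle genes, and 697 of the 870 fell in smooth muscle-like kinds, with 42 of 80 at the earliest time after injury. A barcode was kept when it had at least 500 genes, at least 1000 unique molecular identifiers (UMIs, each standing for 1 captured transcript) and at most 10% mitochondrial UMIs. It also had to hold no UMI of Ptprc or Cdh5, genes of immune and endothelial cells, and at most 1 of the fibroblast gene Pdgfra. The selection then rested on measured values: the sum S of Myh11, Cnn1 and Actg2 UMIs had to reach 4 and be at least as large as P, the sum of the pericyte genes Rgs5, Kcnj8 and Abcc9. In all, 870 of 39266 cells were selected. Of these, 160 came from the unamputated library, 80 from 12 days post-amputation (dpa), 243 from 17 dpa and 387 from 28 dpa.

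All animals were FVB/NJ wild-type mice aged 8 weeks, and every library is labelled as a pool of males and females, with no number of animals given. The 3 injured groups had the digit cut through the middle phalanx (P2), a level that scars and does not regenerate, and the fibrosing tissue was taken at 12, 17 or 28 dpa. The fourth group was uninjured P2 tissue. Digestion used trypsin with collagenase I, followed by lysis of red cells and a sort for cells that excluded propidium iodide, so fractions of cells depend on how well each type came off and survived. Each group was 1 library, so no difference below has a replicate check and no test was made.

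Smooth muscle cells form the contractile wall of arteries, arterioles and larger veins, whereas pericytes sit on capillaries within the basement membrane. Calcium entry activates myosin light chain kinase, and myosin then pulls on actin filaments. The transcription factor SRF with its partner myocardin drives the genes of this apparatus, and Notch3 signalling keeps the cells mature. After vessel injury the cells can lose contractile proteins and make matrix, the so-called synthetic state. Skin also holds smooth muscle at hairs, and the myoepithelial cells of sweat glands, which are epithelial, use many of the same contractile genes.

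Some features of the libraries bear on every result. Selected cells had a median of 11758 UMIs in the unamputated library, 10284.5 at 12 dpa, 6614 at 17 dpa and 4800 at 28 dpa. Their summed UMIs ranged from 1139681 at 12 dpa to 2263223 at 28 dpa. Against the labels, Xist was at 376 CPM (UMIs of the gene summed over cells and scaled to their total by the usual CPM convention) in the selected cells of the 12 dpa library with 0 CPM of 4 Y-linked genes. The other libraries had Xist at 0 to 1.70 CPM and the Y-linked genes at 302 to 432 CPM, so sex and the 12 dpa time point cannot be told apart. Pairs of libraries shared 19 to 87 barcodes among all deposited ones, and 0 of these were selected cells in both libraries.

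The rule left a broad border. Selected cells had a median S of 35 UMIs in the unamputated library, 10 at 12 dpa, 23 at 17 dpa and 16 at 28 dpa. Just inside the limit, 15, 19, 16 and 35 cells in that order had an S of 4 or 5. Just outside it, 25, 45, 25 and 34 otherwise suitable cells had an S of 2 or 3. A far larger group reached an S of 4 but had more pericyte UMIs: 1000, 379, 619 and 650 cells. Smooth muscle transcripts were also found at low level in other cells, and Myh11 stood at 10.0 to 46.2 CPM in cells with at least 2 Ptprc UMIs.

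The selected cells were not of 1 type. Clustering them alone, without the rule genes, gave 9 kinds. In 5 of these (697 cells) 11 to 13 of 13 further smooth muscle markers were detected, such as Acta2, Tagln, Myocd, Notch3 and Pdgfrb, beside at most 6 of 12 fibroblast markers, 1 of 10 of sweat gland myoepithelium and 1 of 10 of Schwann cells. Pericyte markers outside the rule were detected as well, 6, 7, 7, 6 and 2 of 10 in kinds 1 to 5, and Notch3, Mcam and Pdgfrb among the 13 are genes of pericytes too. Kinds 8 and 9 held 12 and 13 of the 13 as well but also 9 of 10 markers of myoepithelium or of Schwann cells, and they were kept apart. A marker counted as detected when at least 25% of the cells of a kind had a UMI. These 5 kinds are called smooth muscle-like below, a choice made after the clusters had been seen. They held 129 of the 160 unamputated cells, 42 of 80 at 12 dpa, 211 of 243 at 17 dpa and 315 of 387 at 28 dpa. Of 12 skeletal muscle markers, 10 or 11 were at 0 in them in each library. Markers of hair muscle do not set them apart from vessel muscle, since 4 or 5 of 6 were detected in each kind, although Hhip was at 1.07 CPM.

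**Figure D1:**
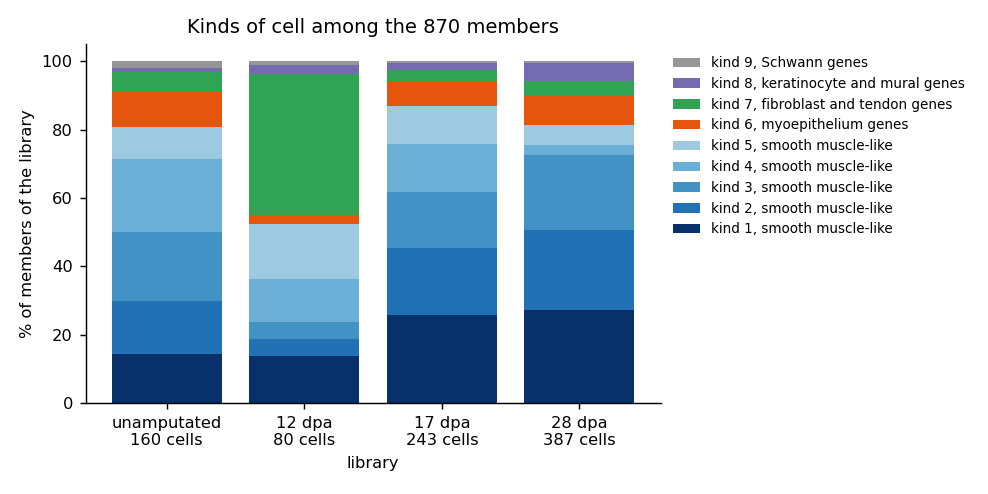
Percent of the selected cells of each library (bars, y axis) that fell in each of the 9 kinds, with the number of selected cells under each library. The 5 blue kinds are smooth muscle-like, and kind 7, with fibroblast and tendon genes, holds 33 of the 80 cells at 12 dpa.

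Kind 6 (70 cells) went against the name of the selected cells. It carried 9 of 10 markers of sweat gland myoepithelium, but of its 10 leading genes over all other cells 0 were on that list and 1, Cnn1, was a gene of the selection rule. It was given no name. Krt14 stood at 2920 CPM and Krt5 at 1760 CPM, keratins of basal and myoepithelial cells, and Trp63, the transcription factor of such cells, at 399 CPM. The oxytocin receptor gene Oxtr was at 25.1 CPM and at 0 in all 5 smooth muscle-like kinds. Chrm3, the muscarinic receptor through which nerves stimulate sweat glands, was at 1710 CPM against 2.35 CPM in the smooth muscle-like cells. Its cells shared Acta2 at 6590 CPM and had Cnn1 at 1510 CPM, against 366 CPM in the smooth muscle-like cells, while Myocd, Pln and Higd1b were at 0. Notch3 and Pdgfrb, genes of vessel-wall cells, were at 3.34 and 1.67 CPM. The kind came from all libraries, with 17, 2, 18 and 33 cells. Scrublet, which scores likely doublets, marked 92.9% of them at a median of 7348 UMIs, and whether they are single cells was not tested.

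Kind 7 (67 cells) was also given no name. It held 11 of 12 fibroblast markers, but of its 10 leading genes over all other cells 2 were tendon markers (Scx and Tnmd) and 0 were fibroblast markers, with Actg2 first. It held 33 of the 80 cells at 12 dpa. Col1a1, a chain of type I collagen, was at 16500 CPM in it against 518 CPM in the smooth muscle-like cells. Scx and Tnmd were at 238 and 195 CPM. Of Actg2 and Myh11, Actg2 was the higher in the 9 unamputated and 33 12 dpa cells, at 266 and 239 CPM against 11.8 and 29.2 CPM of Myh11, and Pln was at 0 in both. In the 8 cells at 17 dpa and the 17 at 28 dpa Myh11 was the higher, at 876 and 1090 CPM against 145 and 37.1 CPM of Actg2. Both genes belong to the selection rule, so these levels only describe how the cells came to be selected. Its cells were deep, with a median of 20162 UMIs, and Scrublet marked 40.3% of them. Kind 8 (29 cells) held 9 of the 10 myoepithelial and keratinocyte markers beside 12 of 13 smooth muscle markers, and Scrublet marked 96.6%. Kind 9 (7 cells) held 9 of 10 Schwann markers together with all 13 smooth muscle markers. Both were given no name.

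**Figure D2:**
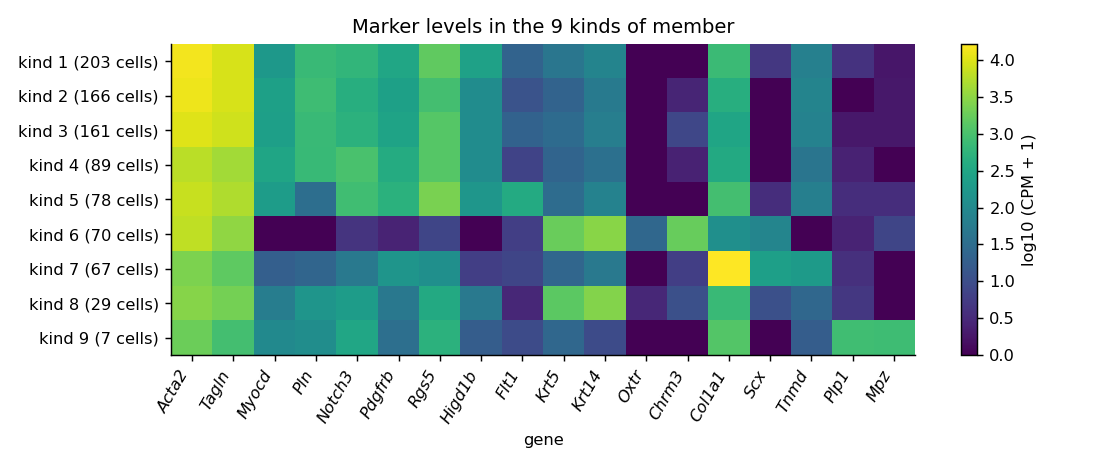
Level of 18 marker genes (columns) in the 9 kinds of selected cell (rows, with cell numbers), as log10 of CPM plus 1 over all 4 libraries. Kinds 1 to 5 share Acta2, Tagln, Myocd and Notch3, kind 6 has keratins and Chrm3 without Myocd or Pln, and kind 7 has the highest Col1a1.

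Among the smooth muscle-like cells, kind 1 (203 cells) was led by Mgp, Higd1b and Gja4, and kind 2 (166 cells) by Klf2, Fos and Hspa1a. Kind 3 (161 cells) was led by Il6 and Adamts9, and kind 4 (89 cells) by the non-coding C030034L19Rik and by Slc38a11, with a median of 6614 UMIs. Kind 5 (78 cells) stood apart: Pln, which encodes the brake on the calcium pump of the sarcoplasmic reticulum, was at 32.5 CPM in it and at 692 to 808 CPM in kinds 1 to 4. Kcnmb1, a subunit of the large-conductance potassium channel, was at 20.0 CPM against 49.3 to 80.0 CPM. Kind 5 also had Rgs5 at 2340 CPM, Abcc9 at 210 CPM, Flt1 at 373 CPM and Kcnt2 at 641 CPM, where kinds 1 to 4 together had 1260 CPM of Rgs5, 15.4 of Abcc9, 15.6 of Flt1 and 14.2 of Kcnt2. In the unamputated and 12 dpa libraries the 15 and 13 cells of kind 5 had no Pln UMI, and at 17 and 28 dpa Pln was at 45.2 and 70.3 CPM. These genes helped to define the kinds and are a description, not a test.

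Selected cells made up 1.34% of all cells within the limits in the unamputated library (exact Clopper-Pearson 95% interval 1.14 to 1.56, counting error only, as for all intervals here). They were 1.15% at 12 dpa (0.915 to 1.43), 2.80% at 17 dpa (2.46 to 3.16) and 3.31% at 28 dpa (3.0 to 3.65). For the smooth muscle-like kinds alone the shares were 1.08% (0.902 to 1.28), 0.605% (0.436 to 0.817), 2.43% (2.11 to 2.77) and 2.70% (2.41 to 3.01). Set against the pericytes, the other mural cells, they were 8.37% of both together in unamputated tissue, 5.41% at 12 dpa, 16.9% at 17 dpa and 17.7% at 28 dpa. The intervals of the unamputated and 12 dpa libraries did not overlap those at 17 and 28 dpa on either scale. Among the 11616, 6623, 8305 and 11031 cells with at least 2000 UMIs, each thinned to 2000 UMIs and with the limit on S lowered to 2, the selected cells were 1.3, 0.876, 2.76 and 3.45%. With stricter limits on cells (1000 genes, 2000 UMIs and 5% mitochondrial UMIs) they were 1.0, 1.2, 2.89 and 2.51%, so that the 12 dpa share was above the unamputated one and the 17 dpa share above that at 28 dpa. Digestion and tissue taken per library can also set such shares, and their part was not tested.

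**Figure D3:**
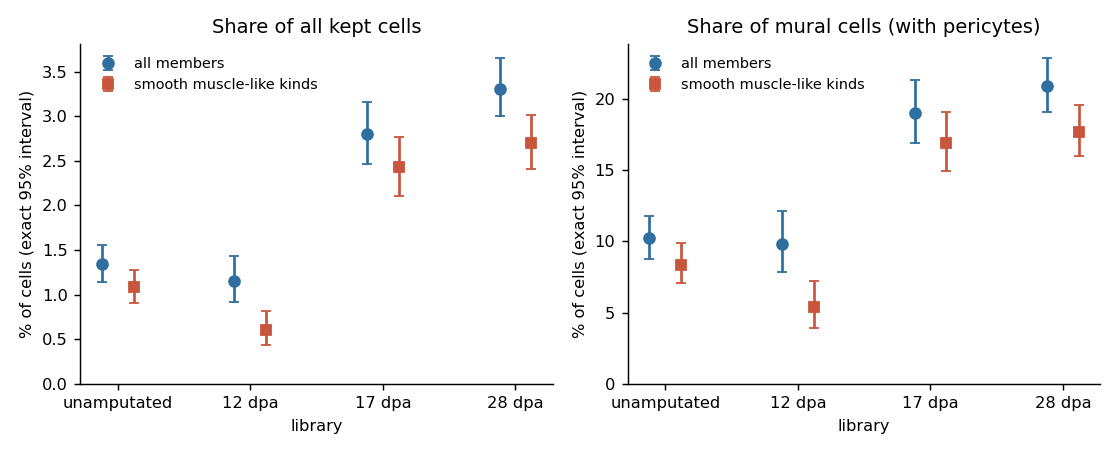
Share of cells (y axis, percent) in each library (x axis) for all selected cells (circles) and for the smooth muscle-like kinds (squares), over all cells within the limits at left and over mural cells at right, where pericytes are added to the denominator. Bars are exact 95% intervals for counting error in 1 library each, and the 17 and 28 dpa libraries lie above the others in both panels.

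Contractile genes separated the smooth muscle-like cells from pericytes in every library. The rule sorted the cells on related genes, so this is a description. Over a list of 28 contractile genes, the median log2 ratio to pericytes of the same library was 1.44 in unamputated tissue, 1.34 at 12 dpa, 1.39 at 17 dpa and 1.43 at 28 dpa. Of these, 16 (57.1%) were at least 2-fold higher in all 4 libraries, beside 202 (4.91%) of the 4114 genes with a mean of 50 CPM in either cell set. Pln was higher with log2 ratios of 4.46, 5.08, 3.73 and 4.20. P2rx1, the ATP receptor of the sympathetic junction in arteries, had 4.22, 4.44, 3.85 and 3.85. Cald1, which encodes the actin-binding caldesmon, was at 2427 to 3196 CPM in smooth muscle-like cells and at 2006 to 2692 CPM in pericytes, a log2 ratio of 0.19 to 0.28. Tpm4, a non-muscle tropomyosin, ran the other way, at 204 to 365 CPM against 423 to 574 CPM in pericytes. Of 9 pericyte genes outside the rule, 4 were at least 2-fold lower than in pericytes in all 4 libraries, among them Higd1b with a log2 ratio of -1.37 to -1.98, and 3 were above the pericyte level in all 4. Of the 4114 genes, 147 (3.57%) were at least 2-fold lower in all 4 libraries and 965 were above the pericyte level in all 4.

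A CArG box, the site bound by SRF (2 C, then 6 bases that are each A or T, then 2 G, a form that reads the same on both strands), was looked for in the 250 bases before the RefSeq start sites of the contractile genes. Windows were found for 25 of the 28 genes, and 4 genes held a box: Vcl, Myl9, Myl6 and Fermt2. That is 13.8% of 29 windows, beside 1.47% of 32851 windows of all genes. The single windows found for Acta2 and Cnn1 held none, which says only that these letters are not in the windows. The 3 windows printed here belong to genes whose levels are given below: Vcl (vinculin, which ties actin to integrins) at chr14:20929148-20929397 on the plus strand, Myl9 (the regulatory light chain that is phosphorylated to start contraction) at chr2:156775214-156775463 on the plus strand, and Myl6 (the essential light chain) at chr10:128493010-128493259 on the minus strand. They run 5′ to 3′ in RefSeq build GRCm38.p6, with the box in capitals.
Vcl: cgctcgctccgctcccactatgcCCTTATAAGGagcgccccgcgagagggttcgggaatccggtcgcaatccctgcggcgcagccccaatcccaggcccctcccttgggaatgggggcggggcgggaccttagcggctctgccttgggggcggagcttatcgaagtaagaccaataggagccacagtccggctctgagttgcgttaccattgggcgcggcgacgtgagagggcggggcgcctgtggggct
Myl9: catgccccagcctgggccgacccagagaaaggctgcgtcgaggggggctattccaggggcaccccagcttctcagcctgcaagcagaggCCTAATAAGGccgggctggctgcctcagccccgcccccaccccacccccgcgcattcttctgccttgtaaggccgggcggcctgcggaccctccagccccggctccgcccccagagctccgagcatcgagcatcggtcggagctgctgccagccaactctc
Myl6: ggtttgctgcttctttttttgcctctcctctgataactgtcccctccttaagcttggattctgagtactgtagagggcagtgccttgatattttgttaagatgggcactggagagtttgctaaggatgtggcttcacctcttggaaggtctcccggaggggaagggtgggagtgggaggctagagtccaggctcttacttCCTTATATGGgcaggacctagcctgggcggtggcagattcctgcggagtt
The box began 227 bases before the start in Vcl, 161 in Myl9 and 50 in Myl6, where Myl6 has a second window without a box.

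Levels were then compared between each injured library and the unamputated one, as log2 ratios of CPM after adding 1 CPM. A gene entered when its mean over the 4 libraries reached 50 CPM, and a gene counted as different past a 2-fold ratio. The 3 comparisons share the unamputated library. Ratios in all other cells come from 1 sum over many cell types, so they also carry shifts in the mix of types. Cells with at least 2 Ptprc UMIs, for example, were 3787 of 11954 in the unamputated library and 1872 of 11677 at 28 dpa. Over all 870 selected cells, 380 of 3671 genes (10.4%) were higher and 838 (22.8%) lower at 12 dpa. At 17 dpa 35 (0.953%) were higher and 89 (2.42%) lower, and at 28 dpa 62 (1.69%) and 168 (4.58%). In the smooth muscle-like kinds alone the 12 dpa counts were 63 of 3570 genes higher (1.76%) and 155 lower (4.34%). At 17 dpa 20 (0.56%) were higher and 26 (0.728%) lower, and at 28 dpa 56 (1.57%) and 147 (4.12%). The restriction to these kinds kept 42 of 80 cells at 12 dpa and 129 of 160 in the unamputated library, so the 12 dpa counts moved with a change in both libraries. The split between higher and lower depends on centring: with ratios centred on their median, 729 genes were higher and 379 lower at 12 dpa over all selected cells, and 115 and 108 at 28 dpa. In the smooth muscle-like kinds the centred counts were 80 higher and 114 lower at 12 dpa, and 112 and 83 at 28 dpa.

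Some of the genes with the most extreme ratios over all selected cells rested on the other kinds or on single cells. Defb6, a skin defensin, had 2, 95, 322 and 4 UMIs in the 4 libraries in time order, and at 12 dpa all of them were in 1 cell. Cst6, a cystatin of the outer epidermis, had 3, 55, 1749 and 47 UMIs, of which 65.6% at 17 dpa came from 1 cell. Mmp13, a collagenase, had 6, 7, 62 and 566 UMIs, and 1 cell gave 87.8% of those at 28 dpa. Mfap4, a microfibril gene of fibroblasts, was at 11.7 CPM in unamputated tissue and 286 CPM at 12 dpa, a log2 ratio of 4.50 that became -1.22 in the smooth muscle-like kinds. Chrm3 was at 258 CPM in unamputated tissue and 10.5 CPM at 12 dpa, where 2 cells of kind 6 were found. Cck, the cholecystokinin gene, and Ntrk2, a neurotrophin receptor gene, also among the lowest at 12 dpa, had log2 ratios of -3.33 and -3.35 over all selected cells and of -1.83 and -1.94 in the smooth muscle-like kinds. Kind 7 held 787939 of the 1139681 UMIs of selected cells at 12 dpa. Fth1 and Id1, among the highest at 28 dpa, had ratios of 1.46 and 1.60 over all selected cells and of 1.45 and 1.73 in the smooth muscle-like kinds. Acta2 had a log2 ratio of -0.97 at 12 dpa over all selected cells and of -0.06 in the smooth muscle-like kinds. Values from here on are for the smooth muscle-like kinds, which at 12 dpa rest on 42 cells and 281435 UMIs.

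Over all smooth muscle-like cells, the contractile apparatus stayed near its unamputated level, and kind 4 at 12 dpa was an exception. The 28 genes had median log2 ratios of -0.18, 0.01 and -0.15 in the 12, 17 and 28 dpa libraries, beside -0.08, -0.02 and -0.14 over all genes tested. None was 2-fold higher in any comparison, and 1 was 2-fold lower, at 28 dpa, beside 4.12% of all genes. Acta2, the smooth muscle actin, stood at 10690, 10250, 10530 and 11970 CPM in the unamputated, 12, 17 and 28 dpa libraries. Tagln, an actin-bundling protein and classic marker of the cell type, stood at 7402, 6843, 7427 and 8859 CPM. Both were highest at 28 dpa and lowest at 12 dpa, by less than 2-fold. In the 10 cells of kind 4 at 12 dpa, however, the list had a median of -0.93. There Acta2 was at 2650 CPM against 7020 in the unamputated cells of kind 4, Tagln at 1150 against 5420 and Myl9 at 511 against 1900, all past 2-fold. In the 11 cells of kind 4 at 28 dpa the median was -0.62 and Acta2 had a ratio of -0.79. In the other 4 kinds the list median was between -0.26 and 0.32 at 12 dpa and between -0.33 and 0.15 at 28 dpa. Kinds 2 and 3 held 4 cells each at 12 dpa. In kind 3 Acta2 was at 22700 CPM there against 9790 in its unamputated cells, and Myl9 at 6300 against 2710. Both were past 2-fold higher, and Tagln was at 15300 against 7830.

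The light chains and tropomyosin 2 were above the unamputated level at 17 and 28 dpa over all smooth muscle-like cells, by less than 2-fold. Myl6 was at 3309, 3919, 4731 and 5486 CPM, and Myl9 at 2621, 2569, 2924 and 3679 CPM. Tpm2 was at 3371, 4051, 4934 and 5610 CPM, a log2 ratio of 0.73 at 28 dpa. Kind 4, with 11 cells at 28 dpa, went the other way there, with ratios of -0.40 for Myl6 and -0.61 for Tpm2 and with Myl9 at 1400 against 1900 CPM. In kind 2 Myl9 was lower at 17 dpa, at 2720 against 3340 CPM. In all other cells Myl6 also had a positive ratio of 0.59 at 28 dpa, whereas that of Myl9 was 0.04. Vcl was the 1 gene past 2-fold: it was at 920 CPM in unamputated tissue, then 824, 518 and 409 in order of time, a log2 ratio of -1.17. Its ratio at 28 dpa was between -1.02 and -1.41 in each of the 5 kinds, and -0.58 in all other cells. Of the genes with a box before the start, Vcl was the lowest of the list at 28 dpa, Myl6 was among the highest, and Fermt2 had a ratio of -0.17. Synpo2 and Actn1, partners of the actin cytoskeleton at dense bodies, had ratios of -0.67 and -0.61 at 28 dpa.

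Of the regulators, 16 of 25 passed the level limit and none was 2-fold different at 17 or 28 dpa. Myocd, the coactivator that drives contractile genes with SRF, was at 271, 203, 277 and 157 CPM. Mef2c, a partner factor, was at 1083, 1023, 939 and 789 CPM. Klf4, a factor linked to the synthetic state, was at 551, 238, 423 and 536 CPM, and it and Klf2 were the 2 of 16 genes past 2-fold lower at 12 dpa, beside 4.34% of all genes. Klf2 leads kind 2, which held 25 of 129 unamputated cells and 4 of 42 at 12 dpa. Among 10 Notch pathway genes Notch3, the receptor of mural cells, was at 650, 743, 629 and 542 CPM. Its target Heyl was at 104, 117, 62.0 and 47.4 CPM, a ratio of -1.12 at 28 dpa, and other cells had -1.03. Hes1, another target, went the other way at 28 dpa with 640 against 378 CPM. The pathway's median ratio was 0.08, 0.02 and -0.19.

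Of 22 ion channel and calcium-handling genes, 1 was 2-fold higher and 1 lower at 12 dpa, beside 1.76% and 4.34% of all genes. None passed at 17 dpa, and 5 were lower and none higher at 28 dpa, where 4.12% of all genes were lower. The other genes of the list did not pass 2-fold, and the list had a median of -0.59 beside -0.14 over all genes and -0.89 for the same list in all other cells. Cacna1c, the pore of the L-type calcium channel, was at 1041, 1229, 813 and 453 CPM. Kcnab1, a potassium channel subunit, was at 1461, 906, 874 and 558 CPM. Slc8a1, the sodium-calcium exchanger, was at 540, 476, 357 and 242 CPM, and Ryr2, the calcium release channel, at 281, 238, 175 and 123 CPM. Kcnma1, the pore of the large-conductance potassium channel, was at 413, 202, 308 and 202 CPM. In each of these 5 genes the counting interval at 28 dpa lay below that of the unamputated library. The 28 dpa level was also the lowest of the 4, except that Kcnma1 was as low at 12 dpa.

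Within kinds the difference in the channel list was uneven. Its median ratio at 28 dpa was -0.05 in kind 1, -0.64 in kind 2, -0.62 in kind 3, 0.14 in kind 4 and -0.40 in kind 5. Kind 4, the one with the highest Kcnab1 level at 2240 CPM, held 34 of 129 cells in unamputated tissue and 11 of 315 at 28 dpa, and without it the median was -0.51. Malat1, a nuclear transcript, was at 31700, 28110, 24710 and 20940 CPM in the 4 libraries. Summed cytosolic ribosomal protein transcripts were at 62170, 74040, 83320 and 95140 CPM. The part of these shifts in the channel result was not tested. Pln ran against the list, at 545, 448, 725 and 817 CPM. Its ratio at 28 dpa was 1.03, 0.03, 0.99 and 0.72 in kinds 1 to 4, so kind 2 was level with its unamputated cells. In kind 5 Pln was found at 28 dpa but had no UMI in the 15 unamputated cells.

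Vasoactive receptors and cyclic nucleotide genes were mixed. Of 14 tested, 2 were 2-fold lower at 12 dpa, none passed at 17 dpa, and 2 were lower and 1 higher at 28 dpa. Of all genes, 4.34% were lower at 12 dpa, and 4.12% lower and 1.57% higher at 28 dpa. Ednra, the endothelin receptor of vessel muscle, was at 516, 615, 365 and 282 CPM. Prkg1, the kinase through which nitric oxide relaxes the cell, was at 3370, 3333, 2321 and 1552 CPM, and other cells had a similar ratio, -1.08 against -1.12. Pde3a, a cyclic nucleotide phosphodiesterase, was at 1883, 2079, 1236 and 908 CPM. Rgs2, which shortens signalling from constrictor receptors, was at 58.5, 28.4, 97.6 and 129 CPM, a ratio of 1.12 at 28 dpa against -0.70 in all other cells. The guanylate cyclase subunits Gucy1a1 and Gucy1b1, the receptor for nitric oxide, had ratios of 0.03 and 0.35 at 28 dpa.

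**Figure D4:**
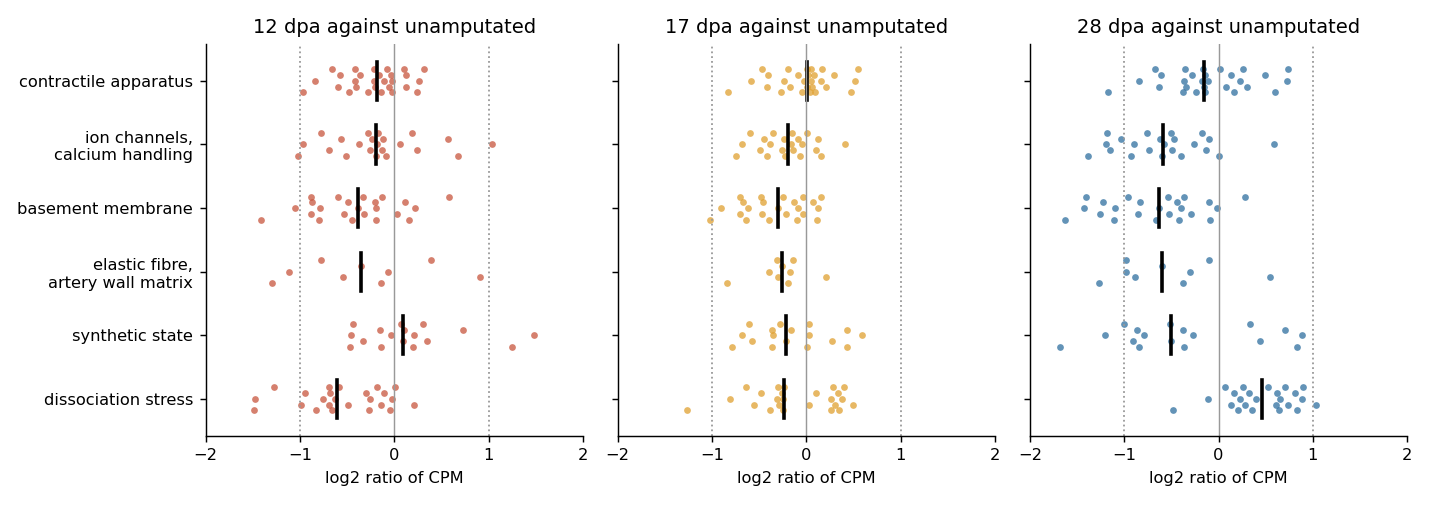
Log2 ratio of CPM to the unamputated library (x axis) for every tested gene (points) of 6 lists (rows) in the smooth muscle-like cells, with the list median as a black bar and dotted lines at 2-fold. The medians of the contractile genes lie near 0 in all 3 panels, with single genes from -1.17 to 0.73 at 28 dpa, and basement membrane genes lie to the left at 28 dpa with a median of -0.64.

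Basement membrane genes, which build the sheath around each muscle cell, had a median ratio below that of all genes in the 3 injured libraries, and most did not pass 2-fold. The median over 23 genes was -0.39, -0.30 and -0.64 in the 12, 17 and 28 dpa libraries, beside -0.08, -0.02 and -0.14 over all genes. Of the 23, 2, 1 and 7 were 2-fold lower and none higher, where 4.34, 0.728 and 4.12% of all genes were lower, and 5, 4 and 1 were above the unamputated level. In all other cells the same medians were -0.26, -0.15 and -0.29. Within the 5 kinds the median at 28 dpa was between -0.61 and -0.74, and in all 5 it was below 0. Col4a1, a chain of type IV collagen, was at 1569, 1034, 773 and 583 CPM. Its partner chain Col4a2 was at 1210, 970, 745 and 566 CPM. For both, each later library was lower than the one before, and Col4a1 had ratios between -1.22 and -2.26 at 28 dpa in each kind. All other cells had ratios of -1.51 for Col4a1 and -1.24 for Col4a2 at 28 dpa. These cells are a mix of types, with summed endothelial markers at 1180 CPM in unamputated tissue and 428 CPM at 28 dpa. The part of such a change in mix was not tested.

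Nid1, which links laminin to collagen IV, was at 122, 107, 64.8 and 50.7 CPM in the smooth muscle-like cells, a ratio of -1.25 at 28 dpa against -0.58 in all other cells. Itga1, an integrin for collagen IV, was at 319, 373, 207 and 147 CPM, and Itga9 at 109, 99.5, 69.8 and 40.7 CPM. Sparcl1, a matrix-linked glycoprotein abundant in vessel walls, stayed at 7054, 7611 and 6987 CPM in the unamputated, 17 and 28 dpa libraries and was at 3859 CPM at 12 dpa. Bcam, a laminin receptor, was the 1 gene of the list above the unamputated level at 28 dpa, at 390 against 321 CPM.

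Matrix genes of the synthetic state were followed next. Of 17 tested, 2 were 2-fold higher at 12 dpa, none passed in either direction at 17 dpa, and 3 were lower at 28 dpa, when the median was -0.51 beside -0.45 in other cells. Of all genes, 1.76% were higher at 12 dpa and 4.12% lower at 28 dpa. Col1a1 was at 646, 739, 505 and 360 CPM, and Col12a1, a fibril-associated collagen, at 167, 163, 103 and 51.4 CPM. The 2 genes higher at 12 dpa were those of tenascin C and periostin, matrix proteins of healing tissue. Postn, for periostin, was at 41.2, 99.5, 42.0 and 56.1 CPM. Pericytes of the 12 dpa library had Postn at 661 CPM, and summed fibroblast markers in the smooth muscle-like cells were at 2853 CPM at 12 dpa and 1995 to 2495 CPM in the other libraries. The part of such transcripts from other cells was not tested. S100a6, a calcium-binding protein of growing cells, was at 3629, 6008, 5447 and 6443 CPM, and the same gene was higher in all other cells too, with ratios of 0.66, 0.58 and 1.18.

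Of 9 genes of the artery wall, 1 was above the unamputated level at 28 dpa. Eln, elastin, was at 531, 416, 429 and 269 CPM. Lox, which cross-links elastin and collagen, was at 210, 85.3, 117 and 86.8 CPM. It was the 1 gene past 2-fold at 28 dpa, where 4.12% of all genes were lower, with a ratio of -1.27 against -0.89 in all other cells. Mgp, an inhibitor of calcification, also leads kind 1. At 12 dpa 2 were 2-fold lower, beside 4.34% of all genes. The median of the list was -0.35, -0.26 and -0.60.

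Ccn2 had the lowest ratio among the signalling genes at 17 and 28 dpa. It encodes a secreted matricellular protein and a known target of TGF-beta and of the YAP factors, and had 762, 83, 163 and 151 UMIs, which is 507 CPM in unamputated tissue (exact Poisson 95% interval 471 to 544), 295 at 12 dpa (235 to 366), 116 at 17 dpa (99 to 135) and 101 at 28 dpa (85.4 to 118). The 17 and 28 dpa levels did not overlap the others, and the log2 ratios were -2.12 and -2.32. In all other cells Ccn2 had ratios of -0.17 and 0.39, and in pericytes -1.45 and -0.93. At 28 dpa the ratio was -3.01, -1.73 and -2.05 in kinds 1, 2 and 3, and kinds 4 and 5, with 11 and 23 cells there, held no Ccn2 UMI at 28 dpa. In the unamputated library, 1 cell held 15.2% of the UMIs. Ccn2 lies on chromosome 10 from 24595442 to 24598683 in GENCODE M21 (GRCm38).

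Ccn1, a relative of Ccn2 with similar control, was at 169, 67.5, 137 and 127 CPM. The ligands Tgfb1 and Tgfb2 were at 80.5 and 265 CPM in unamputated tissue and 46.1 and 135 CPM at 28 dpa.

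Of the Id genes, targets of BMP signalling that block differentiation factors, Id1 and Id2 were 2-fold higher at 28 dpa. Id1 was at 93.1 CPM in unamputated tissue (78.3 to 110), 95.9 at 12 dpa (63.2 to 140), 165 at 17 dpa (145 to 188) and 310 at 28 dpa (283 to 340). The 28 dpa level stood above the rest, with a ratio of 1.73 against 0.42 in all other cells and 1.19 in pericytes, and it was above 0 in all 5 kinds. Id2 was at 194, 81.7, 291 and 394 CPM, a ratio of 1.02 at 28 dpa against -0.05 in all other cells. Id3 was at 775, 842, 878 and 1395 CPM. Over the whole list of 27 TGF-beta, PDGF and CCN genes, 2 were 2-fold higher and 2 lower at 28 dpa, where 1.57% of all genes were higher and 4.12% lower. The median was -0.34 beside -0.14 over all genes. At 12 dpa 3 were lower, beside 4.34% of all genes, and at 17 dpa 3 were lower, Ccn2 and Tgfb1 among them, beside 0.728%. Pdgfrb, the receptor that mural cells need, was at 331, 416, 333 and 262 CPM.

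**Figure D5:**
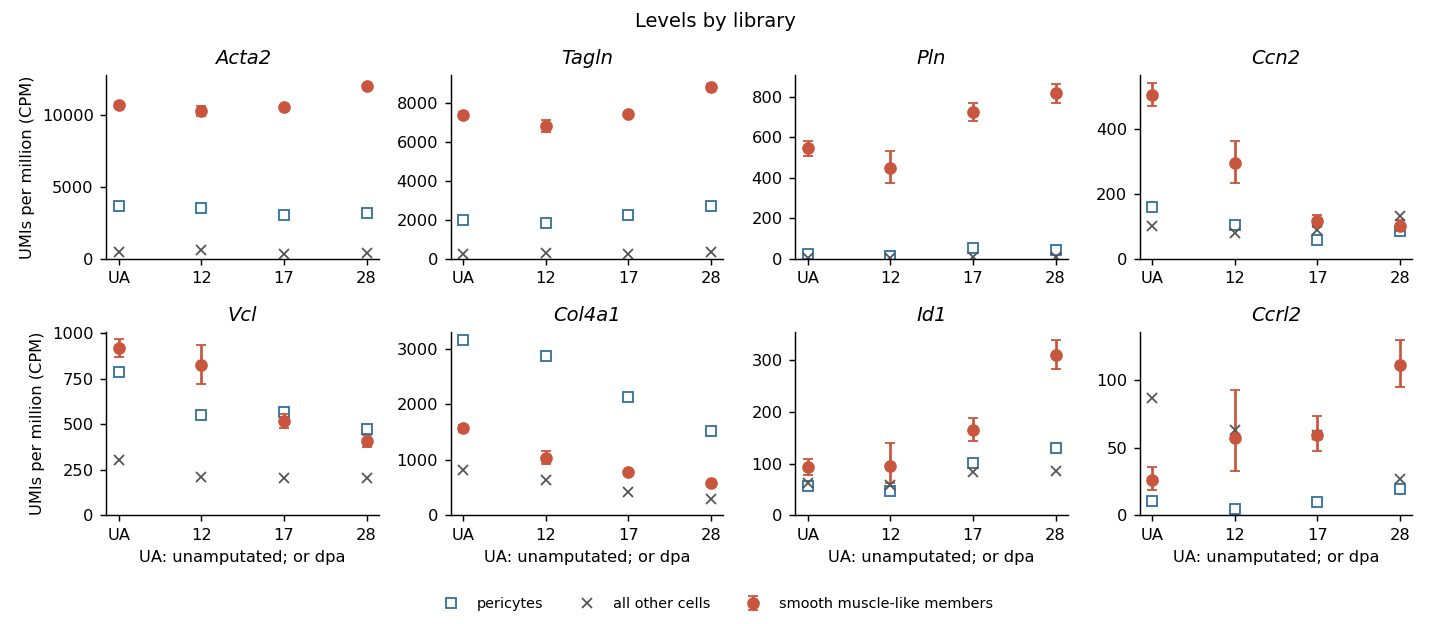
CPM (y axes, from 0) of 8 genes in the smooth muscle-like cells (circles, with exact Poisson 95% intervals for counting error), pericytes (open squares) and all other cells (crosses) of the 4 libraries, where UA is unamputated and numbers are dpa. Acta2 and Tagln stay near their unamputated level, Ccn2 and Vcl are lowest at 17 and 28 dpa, and Id1 and Ccrl2 are highest at 28 dpa.

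Stress and immediate early genes, which rise while tissue is digested, differed by library. Of 24 tested, 3 were 2-fold lower at 12 dpa, 1 lower at 17 dpa and 1 higher at 28 dpa, beside 4.34, 0.728 and 1.57% of all genes. The medians were -0.61, -0.24 and 0.47. All other cells had -0.57, 0.19 and 0.08. Within kinds 1 to 5 the medians were -0.38, -0.15, 0.02, 0.22 and 1.65 at 12 dpa. At 17 dpa they were 0.05, 0.14, -0.16, -0.12 and 1.43. In both libraries every kind was thus above the median over all smooth muscle-like cells, and the part of the mix of kinds was not tested. Fos was at 2687, 1393, 3275 and 4182 CPM and Junb at 1188, 1151, 1424 and 2215 CPM, and both were highest at 28 dpa. Ier2 was the gene past 2-fold at 28 dpa, at 521 against 255 CPM. Fos, Junb and several others lead kind 2, which held 25 of 129 unamputated cells and 4 of 42 at 12 dpa. Without kind 4 the median at 28 dpa was 0.19. Of 11 inflammatory genes 1 was 2-fold lower at 12 dpa, beside 4.34% of all genes, and none passed at 17 or 28 dpa. Cebpd, an acute-phase transcription factor, was at 320, 131, 292 and 568 CPM, and Cxcl1, a chemokine for neutrophils, at 469, 803, 555 and 856 CPM. Cxcl1 was also higher in all other cells at 28 dpa, with a ratio of 1.48 against 0.87.

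Of 24 proliferation genes 5 passed the level limit, and their median was -0.23, 0.55 and 0.67. None was 2-fold different. H2afz, a histone variant, was at 193, 199, 284 and 332 CPM, and Pcna, the replication clamp, at 41.2, 32.0, 69.8 and 66.1 CPM. Mitotic genes such as Mki67 and Top2a were under the limit. Of 11 glycolysis and hypoxia genes none passed 2-fold, and Hk2, a hexokinase, had the lowest ratio at 28 dpa, -0.94. Interferon response genes were represented by 4 genes, none past 2-fold, with medians of -0.04, -0.02 and 0.32. Of 8 clock genes, Dbp was at 28.6, 85.3, 56.3 and 88.8 CPM, and its ratio in all other cells at 28 dpa was 2.47 against 1.60.

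The genes with the most extreme ratios in the smooth muscle-like cells were in part shared with all other cells. At 12 and 17 dpa the highest were Cdk8 and Gm15564. Gm42418, a transcript that overlaps ribosomal RNA and also among the 10 highest at 12 dpa, was at 10790, 43460, 22040 and 17200 CPM in the smooth muscle-like cells, at 14330, 39190, 25210 and 17570 in pericytes and at 16980, 32810, 23210 and 16600 in all other cells. It was highest at 12 dpa in all 3, and its part in the other 12 dpa differences was not tested. Cdk8 was at 386, 2686, 1337 and 539 CPM, and all other cells were at 349, 1271, 758 and 375 CPM, the same order of libraries. Lars2 was at 338, 1368, 827 and 467 CPM with other cells at 402, 876, 712 and 450 CPM. At 28 dpa, Ccrl2, a chemerin-binding receptor, led with 25.9, 56.8, 59.1 and 111 CPM, a ratio of 2.05 against -1.66 in all other cells. Summed immune markers in all other cells were at 11760 CPM in unamputated tissue and 4832 CPM at 28 dpa. Their part in the -1.66 was not tested. Over the 4 libraries Ccrl2 was at 189 CPM in kind 3 and 10.0 to 34.0 CPM in the other smooth muscle-like kinds, with ratios of 1.68 in kind 2 and 2.63 in kind 3 at 28 dpa and -0.34 in kind 1. In kind 4, with 11 cells at 28 dpa and 19.7 CPM in its unamputated cells, and in kind 5 no Ccrl2 UMI was found at 28 dpa, so the level was above the unamputated one in 2 of 5 kinds.

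Fth1, the ferritin heavy chain that stores iron, was at 2188, 3344, 4014 and 5959 CPM, with ratios at 28 dpa of 1.45 here, 1.49 in pericytes and 0.65 in all other cells. Cstb, an inhibitor of cysteine proteases, was at 110, 188, 173 and 344 CPM, and Gadd45g, a stress-response gene, at 302, 259, 416 and 810 CPM. Mt1, a metallothionein, was at 519, 1396, 775 and 1373 CPM. Cdk11b was at 163, 178, 167 and 417 CPM, and its ratio of 1.35 at 28 dpa stood against -0.29 in all other cells and 0.15 in pericytes. Immune cells had Fth1 at 6845 to 12840 CPM, and summed immune markers in the smooth muscle-like cells were 93.8, 78.2, 232 and 244 CPM. Summed myoepithelial and keratin markers in the smooth muscle-like cells were 56.5, 103, 138 and 212.2 CPM, higher in each later library, and in all other cells 2947, 2024, 2011 and 3860 CPM. The part of free RNA in the Fth1 and Cstb values was not tested.

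At the lower end at 28 dpa, after Ccn2, came Meg3, Nr6a1 and Cdk14. Meg3, a long non-coding RNA of an imprinted locus, was at 184, 362, 143 and 42.0 CPM. Its ratio at 28 dpa was -3.60, 0.23, -1.23 and -2.25 in kinds 1, 2, 3 and 5, so it was above the unamputated level in kind 2. The 11 cells of kind 4 held no Meg3 UMI at 28 dpa, against 132 CPM in its unamputated cells. Cdk14 was at 101, 78.2, 51.3 and 24.7 CPM, and Nr6a1 at 99.1, 103, 50.6 and 23.4 CPM. All 3 were also lower in all other cells at 28 dpa, where Meg3 had a ratio of -1.03 against -2.10 here, Cdk14 of -0.84 against -1.99 and Nr6a1 of -0.85 against -2.04. Of the 60 places that the naming rule filled over the 3 comparisons, the genes that lead a kind (Arih1, Txndc11, Trmt61b, Adamts9, Flt1 and Hspa1b) are not given as results.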

How the data were processed

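The 4 libraries were 10x Chromium 3′ v3 libraries, 1 for each group. The deposited values were whole-number UMI counts per gene and barcode for 32285 genes, made with Cell Ranger 7.1.0 on mm10, per the submitters' processing notes; cell-calling settings are not given in the sources used here. No doublets were removed before the selection. UMI counts were summed per library over the cells described and divided by their total, as CPM, with exact Poisson or Clopper-Pearson 95% intervals, which cover counting error only.

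Pericytes were cells under the same limits with P of at least 4 and above S, and other cells were all cells within the limits that were not selected. Selected cells were clustered in scanpy 1.11.5 (scaling to 10000 UMIs, 1000 variable genes without the rule, sex-linked and mitochondrial genes, 15 components, Leiden resolution 0.5), which used the other genes of the same cells. With 1 library a group, no p-value was computed. Named genes were the 10 highest and 10 lowest ratios past 2-fold for each comparison, leaving out the genes of the rule, Ptprc, Cdh5, Pdgfra, sex-linked, mitochondrial, haemoglobin and immunoglobulin genes, and genes under 0.5 of the level in other cells; members of the 15 gene lists could also be named. Genes were chosen for the text from both, and 1 gene is not reported here. The members, lists and comparisons were chosen with earlier results of these data known. The alternative settings are given with the results that depend on processing, and the ratios were tested on simulated counts. Positions are from GENCODE M21, where 32158 gene IDs were found, and promoters from RefSeq on GRCm38.p6.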

Additional observations from a re-analysis of the deposited data

How the results depend on the processing

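Each group was 1 library, so no library could be left out. No paired analysis was possible because each group has a single library. With other limits the shares of selected cells moved as follows. With stricter limits on cells they were 1.0% (unamputated), 2.51% (28 dpa). With S of at least 8 they were 0.72% (12 dpa), 2.65% (28 dpa). With S of at least 2 the share was 1.8% (12 dpa). With P of 0 they were 0.351% (unamputated), 0.49% (12 dpa), 0.679% (17 dpa), 0.899% (28 dpa). Without cells of 4 or more Krt5 and Krt14 UMIs the share was 2.82% (28 dpa). With cells thinned to 2000 UMIs the share was 0.876% (12 dpa). Over selected cells and pericytes they were 10.2% (unamputated), 9.82% (12 dpa), 19% (17 dpa), 20.9% (28 dpa). The next settings were chosen after seeing the data. With S at least 2 times P the shares were 0.995% (unamputated), 1.98% (17 dpa), 2.47% (28 dpa). With S at least 0.5 times P they were 1.91% (unamputated), 1.77% (12 dpa), 3.67% (17 dpa), 4.33% (28 dpa). For the smooth muscle-like kinds they were 1.08% (unamputated), 0.605% (12 dpa), 2.43% (17 dpa), 2.7% (28 dpa). Over those kinds and pericytes they were 8.37% (unamputated), 5.41% (12 dpa), 16.9% (17 dpa), 17.7% (28 dpa). The unamputated and 12 dpa shares stayed below those at 17 and 28 dpa in all of these settings, although with P of 0 the interval at 12 dpa (0.339 to 0.684) overlapped that at 17 dpa (0.517 to 0.875). Stricter limits gave 1.2% at 12 dpa and 2.89% at 17 dpa, which turned the order within each pair of libraries. The 12 dpa share was also above the unamputated one with S of at least 2, at 1.8% against 1.55%. With P of 0 it was above as well, at 0.49% against 0.351%.

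Over all selected cells, counts of genes past 2-fold moved by over 1.5 times in these settings. With a gene minimum of 100 CPM there were 237 higher at 12 dpa, 438 lower at 12 dpa, 19 higher at 17 dpa, 43 lower at 17 dpa, 40 higher at 28 dpa, 94 lower at 28 dpa. With ratios centred on their median there were 729 higher at 12 dpa, 379 lower at 12 dpa, 115 higher at 28 dpa, 108 lower at 28 dpa. With equal weight for each cell there were 222 higher at 12 dpa, 365 lower at 12 dpa, 53 lower at 17 dpa. With S of at least 8 there were 423 lower at 12 dpa. With P of 0 there were 1283 lower at 12 dpa, 149 higher at 17 dpa, 271 lower at 17 dpa, 193 higher at 28 dpa, 395 lower at 28 dpa. With stricter cell limits there were 167 lower at 17 dpa. With Scrublet doublets removed there were 45 lower at 17 dpa. With the smooth muscle-like kinds alone there were 63 higher at 12 dpa, 155 lower at 12 dpa, 20 higher at 17 dpa, 26 lower at 17 dpa. List medians changed sign for Notch (0.083), artery wall (-0.35), clock (0.26), proliferation (-0.23) and glycolysis genes (-0.19) at 12 dpa in the smooth muscle-like kinds. With P of 0 they did so for proliferation, at -0.33 (12 dpa) and -0.82 (28 dpa). Single genes reversed to these log2 ratios. With S of at least 8 they were Defb6 -1.10 (12 dpa), Krt15 0.07 (12 dpa). With cells of 4 or more Krt5 and Krt14 UMIs left out they were Defb6 -1.07 (12 dpa), Defb6 -1.07 (17 dpa). With the smooth muscle-like kinds alone they were Defb6 -0.73 (12 dpa), Mfap4 -1.22 (12 dpa), Defb6 -0.73 (17 dpa), Mest 0.91 (17 dpa), Mmp13 -0.44 (28 dpa), Krt79 1.22 (28 dpa), C1qtnf3 0.004 (28 dpa). With P of 0 they were Cst6 -0.26 (17 dpa), Defb6 -1.27 (17 dpa), Krt6a -0.20 (17 dpa). With Scrublet doublets removed they were Defb6 -0.71 (17 dpa), Krt79 1.23 (28 dpa).

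In the smooth muscle-like kinds, all alternatives were chosen after seeing the data. With a gene minimum of 100 CPM there were 24 higher at 12 dpa, 66 lower at 12 dpa, 11 higher at 17 dpa, 17 lower at 17 dpa, 31 higher at 28 dpa, 79 lower at 28 dpa. With ratios centred on their median there were 112 higher at 28 dpa, 83 lower at 28 dpa. With equal weight for each cell there were 86 higher at 28 dpa, 276 lower at 28 dpa. With sums thinned to the smallest library there were 104 higher at 12 dpa, 88 higher at 17 dpa, 104 lower at 17 dpa, 142 higher at 28 dpa, 293 lower at 28 dpa. With a pseudocount of 10 CPM there were 11 higher at 17 dpa, 36 higher at 28 dpa. With kind 4 left out there were 279 lower at 12 dpa, 57 lower at 17 dpa. None of the 60 named ratios and no called list median reversed there in the 7 settings run. Some did move in size. With kind 4 left out, 16 of the 60 ratios and 3 list medians moved, and with thinned sums 11 and 1. With equal weight for each cell 7 and 3 moved, and with centred ratios 3 and 2. With Scrublet doublets removed 7 of the 60 ratios moved. The cause of these shifts was not tested. At 12 dpa, 42 cells and 281435 UMIs limit what can be seen.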
